A study of Mus musculus with 9 samples.

Results

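A set of 10 genes linked to wounded and migrating cells was described in mouse liver after acetaminophen (APAP) injury. They are 4 annexins (Anxa1, Anxa2, Anxa3 and Anxa5), 4 S100 genes (S100a4, S100a6, S100a10 and S100a11), vimentin (Vim) and galectin 1 (Lgals1). They were taken by symbol from the raw count table, where they make up 10 of 28956 symbols, and all 10 were among the 17582 genes that passed the filter on low counts. The set was chosen by biological role and partly because of the measured counts of Anxa2, which were lower after MSC than with APAP alone, so for all 10 genes the comparison of APAP_MSC with APAP is a description, with no p-value for any member and nothing read from the count of calls.

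Annexins are proteins that bind phospholipid membranes when calcium rises, and they gather at torn plasma membrane, where calcium enters. S100 proteins are small calcium sensors, and several of them bind an annexin: S100A10 joins annexin A2 in a complex that holds plasminogen and its activator at the cell surface, and S100A11 binds annexin A1. Vimentin builds the intermediate filaments of mesenchymal, endothelial and blood-derived cells, and in liver it is carried mostly by cells other than hepatocytes.

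The 9 libraries of liver RNA fall into 3 groups of 3, all from C57BL6J mice aged 8 weeks that received APAP intraperitoneally at 300 mg/kg. The APAP group received no cells, and the APAP_MSC and APAP_HDF groups received 500000 MSC or HDF intravenously 90 min after APAP. Livers were taken at 24 h, per the title of the series. The labels expand neither MSC nor HDF and give no source or species for them, and they list hepatocytes as the cell type although the RNA came from pieces of whole liver. Markers of macrophages, endothelium and stellate cells were detected in every library, so the values are read as whole liver, in which fewer cells of a type and less RNA per cell cannot be told apart. No uninjured liver is among the 9 libraries, so a level after APAP cannot be set against a resting one. Since no label ties each library to its own animal, p-values reflect only how far these samples spread.

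Levels are given in CPM, the count of a gene scaled to a common library size, with sizes adjusted by TMM factors. Total counts were 53267000 to 63176000 per library, rounded to 5 digits. Libraries are numbered in column order within a group. APAP_HDF library 3 stood apart for these genes: it was the lowest of its group for 10 of 10 members, against 32.9% of all tested genes, and the lowest of all 9 libraries for 7 members, against 12.8% of tested genes. The members' differences from and to the APAP_HDF group are therefore given with and without it.

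Promoters of 7 members are in the RefSeq table used here, from 250 bases before to 50 after the start, on build GRCm38.p6, which is older than the build named for the counts. Those of Anxa3, S100a10 and Lgals1 are not in it. The 4 printed here belong to the gene that set the choice (Anxa2), a member that carries the same AP-1 motif (S100a11) and a pair of members without it (Anxa5 and Vim). They lie at chr9:69453433-69453732 on the plus strand, chr3:93520246-93520545 on the plus strand, chr3:36475838-36476137 on the minus strand and chr2:13574061-13574360 on the plus strand, and each reads 5′ to 3′ towards its gene. Capitals mark matches to TGANTCA, the AP-1 motif, searched on both strands.
Anxa2: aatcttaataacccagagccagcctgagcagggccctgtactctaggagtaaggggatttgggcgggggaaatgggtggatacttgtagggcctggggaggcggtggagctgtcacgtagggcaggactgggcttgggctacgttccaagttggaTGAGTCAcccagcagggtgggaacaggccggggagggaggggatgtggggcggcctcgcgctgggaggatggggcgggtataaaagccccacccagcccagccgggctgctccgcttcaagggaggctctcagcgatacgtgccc
S100a11: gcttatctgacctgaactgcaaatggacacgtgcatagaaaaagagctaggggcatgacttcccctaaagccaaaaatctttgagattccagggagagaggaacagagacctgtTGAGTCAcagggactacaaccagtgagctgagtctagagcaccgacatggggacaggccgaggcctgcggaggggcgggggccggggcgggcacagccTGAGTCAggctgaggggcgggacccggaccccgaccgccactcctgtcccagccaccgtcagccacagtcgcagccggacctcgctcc
Anxa5: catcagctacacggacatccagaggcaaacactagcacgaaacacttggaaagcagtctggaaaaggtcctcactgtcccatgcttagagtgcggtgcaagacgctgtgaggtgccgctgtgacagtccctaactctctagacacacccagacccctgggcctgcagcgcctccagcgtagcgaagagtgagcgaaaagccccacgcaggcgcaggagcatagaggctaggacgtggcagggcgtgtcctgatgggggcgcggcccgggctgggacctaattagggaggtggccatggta
Vim: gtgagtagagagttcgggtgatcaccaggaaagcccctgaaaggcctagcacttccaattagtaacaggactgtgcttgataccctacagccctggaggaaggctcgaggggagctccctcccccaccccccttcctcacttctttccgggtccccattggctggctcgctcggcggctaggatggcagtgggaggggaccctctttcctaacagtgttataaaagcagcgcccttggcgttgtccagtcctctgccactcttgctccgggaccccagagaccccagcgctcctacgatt
AP-1 is a pair of Fos and Jun family proteins induced by injury. Its motif was in 2 of the 7 promoters, 95 bases before the start in Anxa2 and 136 and 38 bases before it in S100a11, and in 7.81% of 32851 promoters of this length. The TATA box TATAAA was in 4 of 7 (Anxa1, Anxa2, S100a4 and Vim) and in 13.6% of all, and the GC box GGGCGG in 2 of 7 (Anxa2 and S100a11) and in 35.7% of all. GGAATG, the motif of TEAD factors, was in the promoter of Anxa1 and in 14.7% of all. The CArG box, which serum response factor binds, was in that of Anxa5 and in 1.63% of all. A match describes the sequence and shows no binding.

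Anxa2 showed the largest difference of the 10 between the APAP and APAP_MSC groups. It stood at 240.4, 144 and 215 CPM with APAP alone, 44.1, 49.95 and 37.95 after MSC and 216, 128 and 57.01 after HDF. All 3 APAP_MSC libraries lay below all 6 others, and APAP_HDF library 3 lay nearest to them. In the APAP_MSC group the mean was 43.99 ± 5.999 CPM (SD, n = 3) against 199.8 ± 50.3 in APAP (SD, n = 3), a fitted log2 difference of -2.18 ± 0.43 (SE), or 4.54-fold lower. The annotated antisense gene Gm16144 and Mir3109, which overlap Anxa2, summed to 0.353 CPM, and whether counting used strand is not given in the sources used here.

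Anxa3, an annexin found in neutrophils and other migrating cells, had the second largest difference. Its levels were 21.2, 16.8 and 25.6 CPM with APAP alone, 7.77, 7.76 and 5.53 after MSC and 22.5, 20.3 and 10.2 after HDF. Again no APAP_MSC library reached any library of the other groups. The fitted log2 difference from APAP was -1.60 ± 0.29 (SE), or 3.03-fold lower in APAP_MSC.

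Anxa1, which restrains neutrophil entry through formyl peptide receptors, was scarce. It read 4.89, 7.19 and 5.01 CPM with APAP alone, 3.34, 2.42 and 3.54 after MSC and 2.83, 3.88 and 1.76 after HDF. All 6 libraries of mice given cells lay below all 3 APAP libraries, and the 2 cell groups overlapped. The log2 difference of APAP_MSC from APAP was -0.87 ± 0.27 (SE).

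Anxa5 binds phosphatidylserine exposed on dying cells. Its levels were 244, 144 and 128 CPM with APAP alone, 109, 104 and 99.6 after MSC and 168, 126 and 80.5 after HDF. APAP library 1 was far above the other two, and the 3 APAP_MSC libraries, although all below the APAP libraries, lay inside the range of APAP_HDF. The log2 difference of APAP_MSC from APAP was -0.72 ± 0.29 (SE).

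S100a10, the partner of annexin A2, was 233, 204 and 223 CPM with APAP alone, 157, 164 and 139.8 after MSC and 219, 162 and 161 after HDF. The APAP and APAP_MSC libraries did not overlap, but the step was small, at a log2 difference of -0.52 ± 0.13 (SE). The ratio of Anxa2 to S100a10 in CPM was 1.03, 0.703 and 0.967 with APAP alone, 0.281, 0.305 and 0.272 after MSC and 0.986, 0.790 and 0.354 after HDF. The messages of the 2 partners were thus in a lower ratio in every APAP_MSC library than in any other library, with APAP_HDF library 3 next, and this follows from the Anxa2 values that set the choice.

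**Figure D1:**
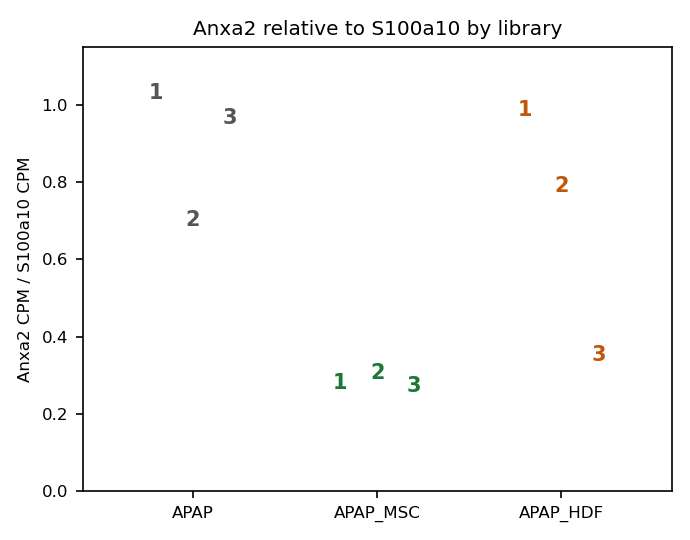
Ratio of Anxa2 to S100a10 CPM (vertical axis, from 0) in each of the 9 libraries, by group on the horizontal axis, with points numbered in column order. The APAP_MSC points lie between 0.272 and 0.305, below all others.

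S100a11, the partner of annexin A1, was 49.1, 43.7 and 48.3 CPM with APAP alone, 22.9, 24.8 and 23.4 after MSC and 39.03, 29.2 and 20.3 after HDF. The APAP libraries lay close together and above all 6 libraries of mice given cells. APAP_MSC was 1.98-fold lower than APAP, a log2 difference of -0.99 ± 0.19 (SE). S100a11 and S100a10 are neighbouring coding genes on chromosome 3 in the RefSeq order of GRCm38.

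S100a6, or calcyclin, a gene of proliferating and stromal cells, was 8.96, 8.59 and 11.4 CPM with APAP alone, 3.49, 5.36 and 3.58 after MSC and 7.33, 6.50 and 3.31 after HDF. Every library of mice given cells was below every APAP library. The log2 difference of APAP_MSC from APAP was -1.23 ± 0.28 (SE). S100a4, a gene of fibroblasts and macrophages that promotes cell motility, rested on 2 to 19 counts per library, and its values of 0.0362 to 0.293 CPM overlapped in all 3 groups.

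Vim was 32.5, 50.5 and 37.9 CPM with APAP alone, 21.4, 22.9 and 26.4 after MSC and 28.6, 26.8 and 13.3 after HDF. The APAP libraries were above all libraries of both groups given cells. The log2 difference of APAP_MSC from APAP was -0.77 ± 0.27 (SE). Lgals1, a secreted lectin that binds galactose-bearing glycans, was 21.99, 23.8 and 12.3 CPM with APAP alone, 12.4, 13.8 and 14.6 after MSC and 13.04, 12.4 and 5.94 after HDF. Its APAP and APAP_MSC libraries overlapped through APAP library 3, and the log2 difference was -0.50 ± 0.30 (SE).

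**Figure D2:**
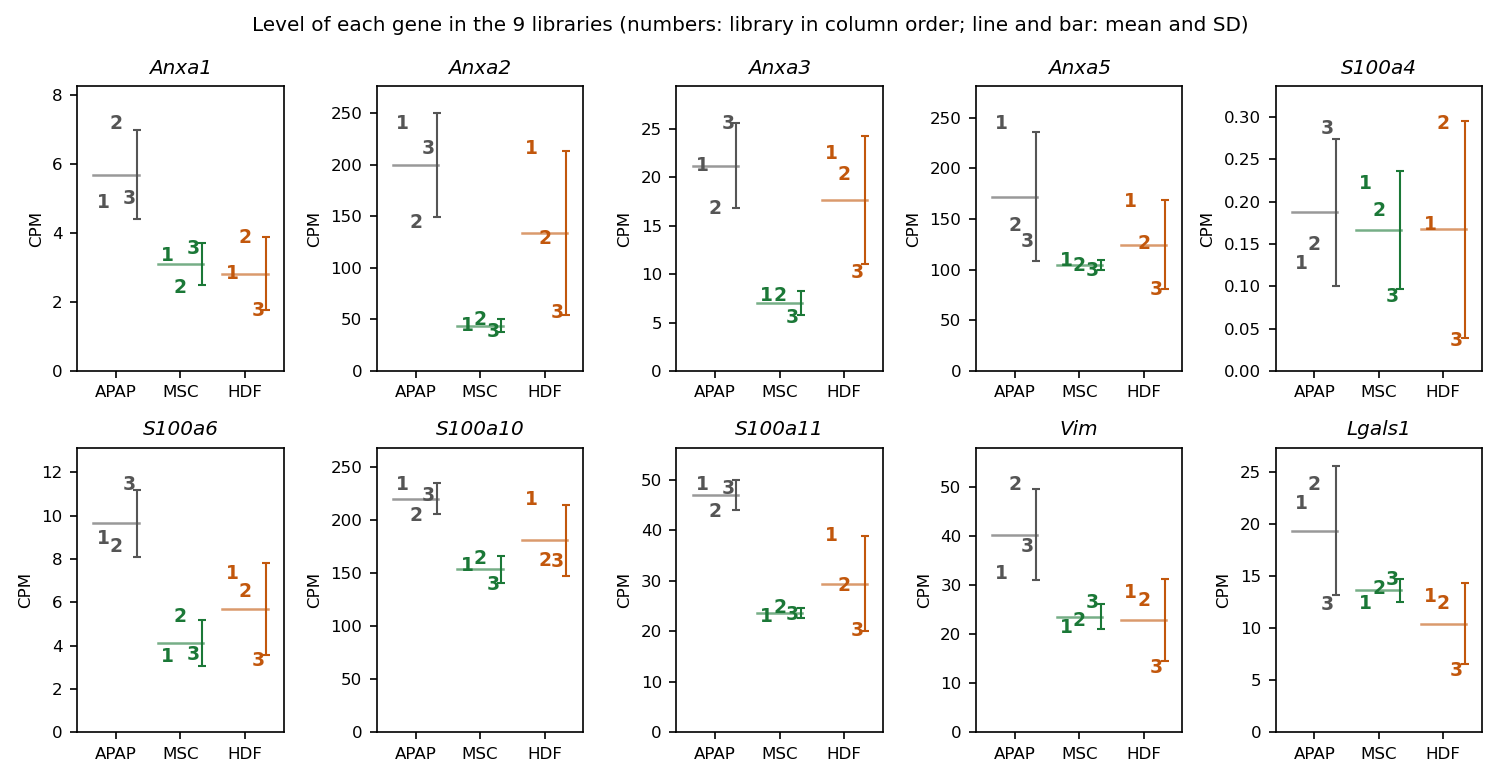
CPM (vertical axes, from 0) of each of the 10 genes in the 9 libraries, by group, with points numbered in column order and a line and bar for the mean and SD of 3 libraries. Anxa2 is at 37.95 to 49.95 CPM in APAP_MSC against 144 to 240.4 in APAP, and APAP_HDF library 3 is the lowest of its group in every panel.

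As a set, 5 of the 10 members (Anxa2, Anxa3, S100a6, S100a10 and S100a11) were among the genes called lower in APAP_MSC than in APAP, where 6.38% of tested genes were called and 3.54% were called lower. The groups did not overlap for 8 members, all lower, against 14.7% of tested genes. All 10 log2 differences were below 0, against 51.1% of tested genes, with a median of -0.82 against -0.0084 over all tested genes. Since the choice of members used this contrast, these counts only describe the set. The calls also changed when 1 library was left out, in fits with fewer samples. EdgeR called 1, 4 and 2 members without APAP libraries 1, 2 and 3, and 0 without any of the 3 APAP_MSC libraries. It called 5, 4 and 7 without APAP_HDF libraries 1, 2 and 3. Without APAP_MSC library 1, 2 or 3, the calls over all genes also fell, from 1121 to 258, 97 and 380. The log2 difference of Anxa2 stayed between -2.01 and -2.36 over the fits.

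Relative to transcript length, the members differ by orders of magnitude. The level per kilobase, CPM divided by the length of the longest reference coding transcript, was highest for S100a10 in APAP, at 321 CPM per kb, followed by Anxa2 at 138, Anxa5 at 99.4 and S100a11 at 92.1. The ranges of Anxa2 (99.3 to 166) and Anxa5 (73.7 to 141) overlapped, and that of S100a11 (85.6 to 96.04) lay inside the range of Anxa5. Next came Lgals1 at 24.2, Vim at 18.4, Anxa3 at 13.3 and S100a6 at 13.2 CPM per kb, each overlapping its neighbour. Anxa1 at 3.40 and S100a4 at 0.376 CPM per kb were separate from the rest and from each other. In APAP_MSC the order at the top was S100a10 at 224, Anxa5 at 60.2, S100a11 at 46.4 and Anxa2 at 30.4 CPM per kb, so that Anxa2 moved from the second place to the fourth. In APAP_HDF the order of the means of these 4 was S100a10 at 264, Anxa2 at 92.5, Anxa5 at 72.04 and S100a11 at 57.7 CPM per kb. There the ranges of Anxa2 (39.4 to 149), Anxa5 (46.5 to 96.8) and S100a11 (39.7 to 76.4) overlapped. The low end of each range was APAP_HDF library 3, in which Anxa2 was the lowest of these 4, as in the APAP_MSC means.

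Whether HDF infusion altered these genes was asked against the same APAP libraries, a comparison the choice of members did not use but which shares those libraries with it. No member passed the test, and no gene of the whole table did: edgeR called 0 of 17582 genes (0%), with a smallest adjusted p of 0.357 and 1544 genes at an unadjusted p under 0.05, while limma-voom called 0 and DESeq2 83. Among the members, 5 had an unadjusted p under 0.05, against 8.78% of tested genes. The log2 differences of all 10 members were below 0, as were 51% of tested genes, with a median of -0.63 against -0.0048 over all tested genes.

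Anxa1 had the largest difference in this comparison, at log2 -1.002 ± 0.27 (SE; 95% interval -1.60 to -0.40; edgeR adjusted p = 0.482). Lgals1 followed at -0.88 ± 0.31 (SE; adjusted p = 0.535 by edgeR), Vim at -0.81 ± 0.27 (SE; adjusted p = 0.523 by edgeR) and S100a6 at -0.75 ± 0.27 (SE; adjusted p = 0.535 by edgeR). S100a11 was at -0.67 ± 0.18 (SE; edgeR adjusted p = 0.482). The 4 genes Anxa1, S100a6, S100a11 and Vim were lower in every APAP_HDF library than in every APAP library, a separation shown by 6.08% of tested genes. Anxa2, in contrast, was at -0.58 ± 0.41 (SE; 95% interval -1.53 to 0.37; edgeR adjusted p = 0.708) and Anxa3 at -0.26 ± 0.27 (SE; 95% interval -0.87 to 0.34; edgeR adjusted p = 0.801), and both overlapped. Of the remaining members, Anxa5 was at -0.46 ± 0.29, S100a10 at -0.28 ± 0.13 and S100a4 at -0.17 ± 0.62 (SE).

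Without APAP_HDF library 3 these differences from APAP were closer to 0 in 9 of the 10 members, and those of Anxa3 and S100a4 turned positive. The log2 difference was then -0.76 for Anxa1, -0.61 for Lgals1, -0.54 for Vim, -0.48 for S100a6 and -0.47 for S100a11. It was -0.22 for Anxa2, 0.011 for Anxa3, -0.23 for Anxa5, -0.21 for S100a10 and 0.26 for S100a4. No member passed the test with any 1 of the 9 libraries left out. DESeq2's 83 genes and the 32 that edgeR called without APAP library 3 show that the count of 0 over all genes depends on the method and on that library.

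**Figure D3:**
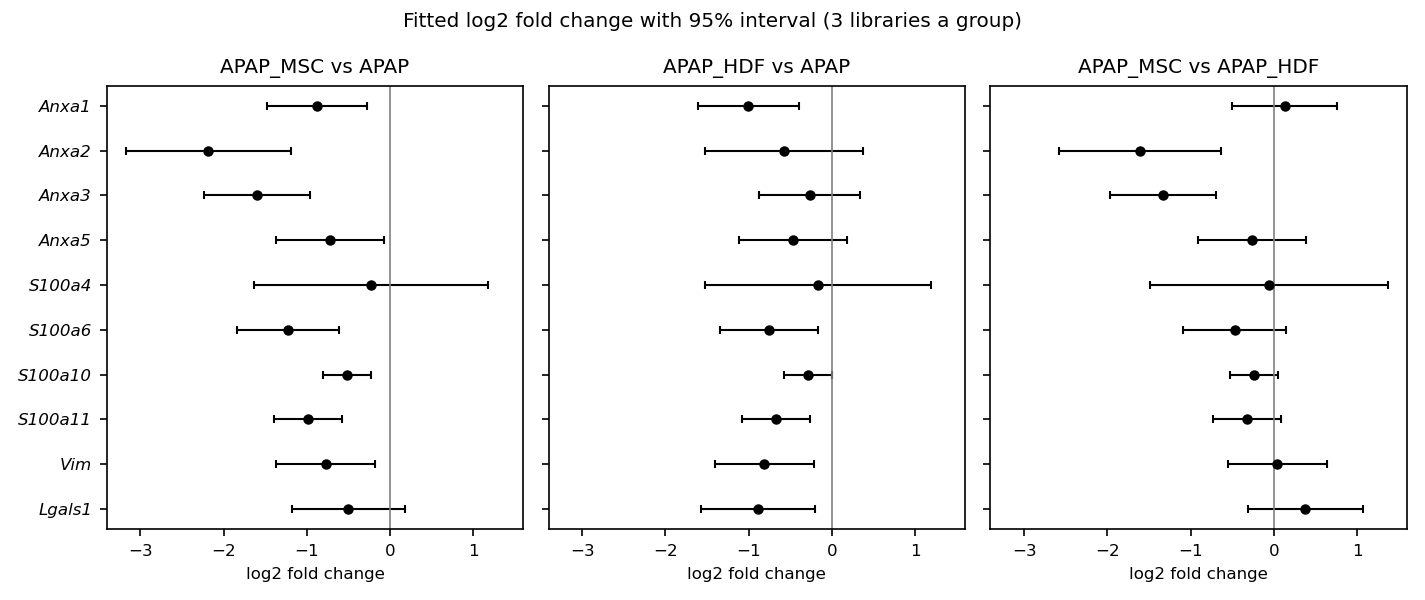
Fitted log2 fold change (horizontal axes) of each gene in the 3 comparisons, with points for the estimate and bars for the 95% interval, from 3 libraries a group. Anxa2 and Anxa3 lie lowest in APAP_MSC vs APAP and in APAP_MSC vs APAP_HDF, and their intervals span 0 in APAP_HDF vs APAP.

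MSC and HDF infusion were then compared directly, which is also the test of whether their effects differ. This comparison shares the APAP_MSC libraries with the one that set the choice of Anxa2. Anxa3 was lower with MSC than with HDF: its mean was 7.02 ± 1.29 CPM in APAP_MSC against 17.7 ± 6.57 in APAP_HDF (SD, n = 3 each), a log2 difference of -1.33 ± 0.28 (SE; 95% interval -1.97 to -0.70; edgeR adjusted p = 0.0208). It was the single member called, where 8.89% of tested genes were called and 3.99% were called lower. Anxa2 was at log2 -1.61 ± 0.43 (SE; 95% interval -2.58 to -0.63) and was not called in edgeR. Its low APAP_MSC values set the choice, so for Anxa2 this comparison is a description too, with no p-value given. Both genes had no overlap between the groups, as had 16.4% of tested genes in the lower direction. The median log2 difference of the 10 members was -0.25 against -0.021 over all tested genes, and 7 of 10 were below 0, against 52.3% of tested genes.

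The calls between MSC and HDF changed when 1 library was left out, in fits with fewer samples. Without APAP_HDF library 3 edgeR called both genes, with Anxa2 at -1.96 and Anxa3 at -1.59 (edgeR adjusted p = 0.00345). The Anxa3 call was lost without APAP_MSC library 1, 2 or 3, with edgeR adjusted p of 0.0586, 0.0793 and 0.0657, and without APAP_HDF library 1 or 2, at 0.0616 and 0.0611. It was also lost with no filter on low counts (adjusted p = 0.0527 by edgeR). DESeq2 and limma-voom called Anxa2 as well as Anxa3, which for Anxa2 is again only a description. Over the 15 alternatives run, the log2 difference stayed between -1.06 and -1.96 for Anxa2 and between -1.11 and -1.59 for Anxa3.

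The other 8 members gave no call between MSC and HDF. Vim was at log2 0.04 ± 0.27 (SE; 95% interval -0.56 to 0.64; edgeR adjusted p = 0.942) and Anxa1 at 0.13 ± 0.29 (SE; 95% interval -0.50 to 0.76; edgeR adjusted p = 0.814). Lgals1 was at 0.38 ± 0.31 (SE; 95% interval -0.30 to 1.07), S100a11 at -0.32 ± 0.19 (SE; 95% interval -0.72 to 0.09), S100a10 at -0.24 ± 0.13 (SE; 95% interval -0.53 to 0.05) and S100a6 at -0.47 ± 0.28 (SE; 95% interval -1.09 to 0.15). These intervals do not show that the 2 infusions act alike on them: for Vim the interval allows a difference of log2 -0.56 to 0.64. Anxa5 was at -0.26 ± 0.29 (SE) and S100a4 at -0.06 ± 0.65 (SE). Without APAP_HDF library 3, S100a11 was at -0.51 and lay at the edge of the threshold without passing it, and S100a6 was at -0.73 (edgeR adjusted p = 0.0786). In the same fit Lgals1 was at 0.12, S100a10 at -0.30, Anxa5 at -0.48 and S100a4 at -0.47, and Vim and Anxa1 turned negative, at -0.22 and -0.10.

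The median SD of log2 CPM over the members was 0.316 with APAP alone, 0.176 after MSC and 0.612 after HDF, against 0.230, 0.176 and 0.218 over all tested genes. The SD was above that of the median gene for 7 members with APAP alone, 5 after MSC and all 10 after HDF. In APAP_HDF, library 1 was the highest of its group for 8 of them. Against the range of the APAP_MSC libraries, APAP_HDF library 3 was below it for 7 members, within it for 1, and above it for Anxa2 and Anxa3.

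**Figure D4:**
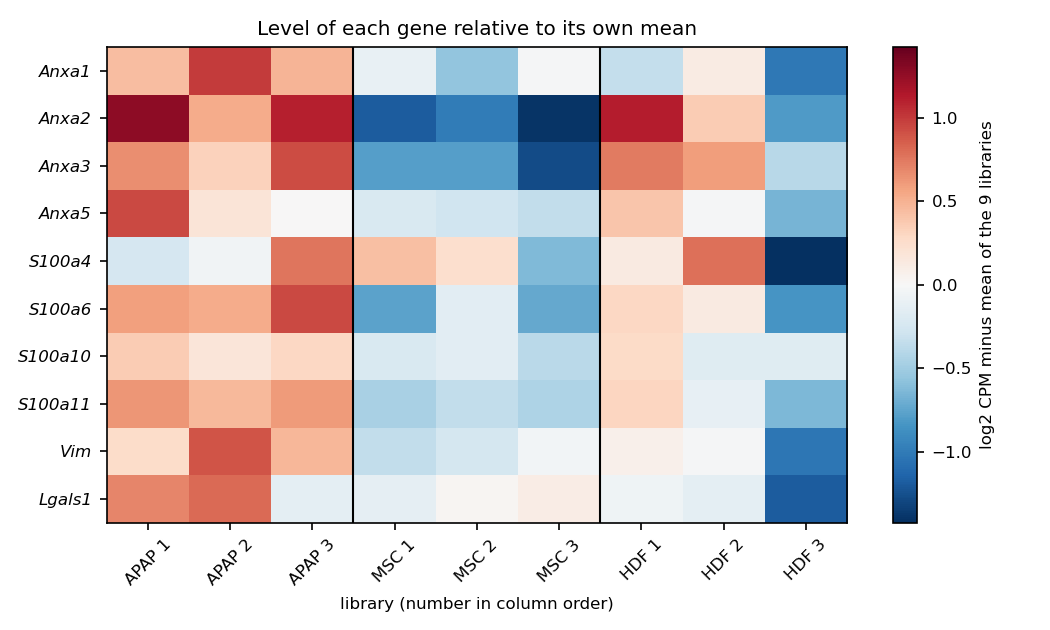
Log2 CPM of each gene minus its mean over the 9 libraries (colour, red above and blue below), with genes in rows and libraries in columns by group. APAP_HDF library 3 is low for all 10 genes, with a median of -0.82, and the APAP libraries are high, with medians of 0.50 to 0.61.

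The patterns of the messages were also compared between members, including those whose proteins bind each other. Likeness was measured as the root mean square difference of log2 CPM, after centring each gene over the 9 libraries, where 0 would be the same pattern. The closest pair of members was Anxa1 and Vim at 0.207, followed by S100a6 and S100a11 at 0.218 and S100a10 and S100a11 at 0.257. The binding partners Anxa2 and S100a10 were at 0.795, and Anxa1 and S100a11 at 0.378. This measure also counts the size of the swings. The root mean square of the centred values was 1.03 for Anxa2 and 0.255 for S100a10. The distance of that pair thus takes in a larger swing of Anxa2, whose values set the choice, and does not show unlike directions. Among genes of at least 5 CPM, those nearest to Anxa2 were Rab31 at 0.320, Ahnak at 0.324, Anxa3 at 0.337 and Sh3pxd2b at 0.340. Rab31 is a small GTPase of vesicle traffic, and Sh3pxd2b encodes an adaptor of podosomes. Nearest to Anxa5 were Uaca at 0.159, Pea15a at 0.169, Cyp4f16 at 0.176 and Pam at 0.178. Nearest to Vim were Tagln2 at 0.186, an actin-binding transgelin, Ehd2 at 0.209, a caveolar ATPase, Cmtm3 at 0.210 and Col5a2 at 0.215, a fibrillar collagen chain. These likenesses are descriptions over 9 libraries that share their group means.

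Partners of annexin A2 and S100A10 and genes of the plasmin system did not all move the same way. Of 11 tested, 7 were below 0 and 4 above 0 in APAP_MSC against APAP (median -1.11 against -0.0084 over all genes). EdgeR called 2 lower (Ahnak and Cd44) and 0 higher, where 3.54% of tested genes were called lower. The summed level of the list was highest after MSC, at 3889 to 4102 CPM. It was 3214 to 3579 CPM with APAP alone and 2931 to 3789 after HDF. Ahnak, the giant scaffold that binds the annexin A2 complex, stood at 135, 98.9 and 177 CPM with APAP alone, 26.3, 31.3 and 37.4 after MSC and 165, 111 and 65.2 after HDF. Every APAP_MSC library was below every other library. Ahnak fell by 2.11 ± 0.34 on the log2 scale (SE; edgeR adjusted p = 0.0147) against APAP, and APAP_MSC was -1.84 ± 0.33 (SE; edgeR adjusted p = 0.0139) from APAP_HDF. Cd44, the hyaluronan receptor, was -1.30 ± 0.28 (SE; edgeR adjusted p = 0.0238) from APAP. With each library left out in turn, the call of Ahnak held in 7 of 9 fits in each comparison and that of Cd44 in 6 of 9. Over those fits the list gave 0 to 6 calls against APAP.

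The share of all tested genes called in APAP_MSC was 6.38% against APAP and 8.89% against APAP_HDF. The shares called lower were 3.54% and 3.99%. Among 4 tested genes of annexin A1 receptors and phospholipase A2, 0 passed in edgeR in either comparison. Of 6 other annexins tested, 0 passed against APAP and 1 against APAP_HDF, Anxa7, at -0.53 ± 0.12 (SE; edgeR adjusted p = 0.0185), a gene of membrane fusion. Among 6 other S100 genes, S100a8 and S100a9, the neutrophil and monocyte alarmins, fell in APAP_MSC against APAP, by 2.29 ± 0.41 (SE; edgeR adjusted p = 0.0147) and by 1.79 ± 0.40 (SE; edgeR adjusted p = 0.0269) on the log2 scale, and 0 of 6 passed against APAP_HDF. Of 7 other galectins tested, 4 were below 0 and 3 above 0 against APAP, and 2 rose, Lgals9 at 0.68 ± 0.13 (SE; edgeR adjusted p = 0.0178) and Lgalsl at 0.51 ± 0.12 (SE; edgeR adjusted p = 0.0279), and Lgals9 also rose against APAP_HDF at 0.72 ± 0.13 (SE; edgeR adjusted p = 0.00902). Galectin 9 is a lectin found in immune cells and endothelium among others, and which cells carried its rise was not tested. Lgals3, a galectin of macrophages, was lower in every APAP_MSC library than in every APAP library but did not pass, at -1.19 ± 0.31 (SE; edgeR adjusted p = 0.0558) against APAP and -1.16 ± 0.31 (SE; edgeR adjusted p = 0.0515) against APAP_HDF. With each library left out in turn, the calls against APAP held in 7 of 9 fits for S100a8, 3 for S100a9, 7 for Lgals9 and 4 for Lgalsl, and those against APAP_HDF in 6 for Anxa7 and 8 for Lgals9.

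Genes of plasma membrane repair were called in 2 of 19 in each comparison with APAP_MSC, both lower: Bin1, a membrane-bending BAR protein, at -0.67 ± 0.13 (SE; edgeR adjusted p = 0.0184) against APAP, and Capn2, a calcium-activated protease, at -0.48 ± 0.12 (SE; edgeR adjusted p = 0.0405). The list's median was -0.26 against APAP and -0.12 against APAP_HDF, beside -0.0084 and -0.021 over all genes, and with 1 library left out 0 to 5 of its genes were called against APAP. With each library left out in turn, the call of Bin1 against APAP held in 5 of 9 fits and that of Capn2 in 2. Of all tested genes, 3.54% were called lower against APAP and 3.99% against APAP_HDF. Of 12 other intermediate filament genes, Krt8, the hepatocyte keratin, was the only call against APAP, at -1.08 ± 0.26 (SE; edgeR adjusted p = 0.0370), and it held in 2 of 9 fits with a library left out. Krt19, a keratin of bile duct cells, rose against APAP_HDF, at 1.25 ± 0.26 (SE; edgeR adjusted p = 0.0148). Of 11 tubulins, Tubb6 fell in both comparisons, at -1.05 ± 0.17 (SE; edgeR adjusted p = 0.0105) against APAP and -0.97 ± 0.17 (SE; edgeR adjusted p = 0.00813) against APAP_HDF.

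Genes of the actin cytoskeleton and motility were lower in part. Over all tested genes, 3.54% were called lower in APAP_MSC against APAP and 3.99% against APAP_HDF. Of 44 tested, 10 were lower and 0 higher in APAP_MSC against APAP (median -0.47 against -0.0084 over all genes), and 8 were lower and 0 higher against APAP_HDF (median -0.29 against -0.021). Pdlim7, a stress fibre adaptor, was -0.82 ± 0.16 (SE; edgeR adjusted p = 0.0184) from APAP and -1.08 ± 0.16 (SE; edgeR adjusted p = 0.00410) from APAP_HDF. Tropomyosin gene Tpm1 was -0.76 ± 0.14 (SE; edgeR adjusted p = 0.0165) from APAP, and Vcl, the focal adhesion protein vinculin, was -0.85 ± 0.17 (SE; edgeR adjusted p = 0.0133) from APAP_HDF. The 10 calls against APAP became 2 without APAP library 1, 4 without APAP library 2 or 3, 1, 0 and 1 without APAP_MSC libraries 1, 2 and 3, 6 without APAP_HDF library 2 and 18 without APAP_HDF library 1 or 3. The 8 calls against APAP_HDF became 4, 1 and 3 without APAP_MSC libraries 1, 2 and 3, 5 without APAP_HDF library 1 or 2, and 12 without APAP_HDF library 3. In the comparison of APAP_HDF with APAP, 0 genes of any of these lists passed in edgeR.

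Markers of other liver cells were called in part. Over all tested genes, 3.54% were called lower in APAP_MSC against APAP and 3.99% against APAP_HDF. In either direction the shares were 6.38% and 8.89%. Of 14 monocyte and macrophage markers, 8 were lower and 0 higher in APAP_MSC against APAP, and 2 were lower against APAP_HDF, with their summed level at 142 to 212 CPM with APAP alone, 71.8 to 98.3 after MSC and 108 to 158 after HDF. Cd68, a lysosomal macrophage marker, was -1.25 ± 0.16 (SE; edgeR adjusted p = 0.00415) from APAP and -1.30 ± 0.16 (SE; edgeR adjusted p = 0.00173) from APAP_HDF, and both calls held with any 1 library left out. Endothelial markers were lower in 4 of 12 against APAP and in 3 of 12 against APAP_HDF. With 1 library left out, the calls against APAP_HDF ran from 1 to 5. They were 1 without APAP_MSC library 2 and 5 without APAP library 3 or APAP_HDF library 3. The endothelial sums were 258 to 390.3 CPM with APAP alone, 184 to 205 after MSC and 237 to 359 after HDF. Stellate cell and fibroblast markers were lower in 2 of 15 against APAP and higher in 1 of 15 against APAP_HDF, with sums of 289 to 421 CPM with APAP alone, 277 to 298 after MSC and 207 to 315 after HDF. Neutrophil markers were lower in 2 of 6 tested against APAP and in 1 of 6 against APAP_HDF (0 to 1 with 1 library left out). The neutrophil sums were 5.64 to 7.30 CPM with APAP alone, 2.10 to 3.21 after MSC and 2.93 to 7.13 after HDF. With 1 library left out, the calls against APAP ran from 1 to 10 for macrophage markers and from 0 to 9 for endothelial ones, with 1 macrophage call left without APAP_MSC library 2 and 0 endothelial calls without APAP_MSC library 2 or 3. In the same fits they ran from 0 to 2 for stellate cell and fibroblast markers and from 0 to 3 for neutrophil markers. The stellate cell and fibroblast markers higher against APAP_HDF ran from 0 to 3. None of the markers was at 0 in all 9 libraries.

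APAP_HDF library 3 was the lowest of its group in the summed macrophage (108 CPM), endothelial (237), stellate cell (207) and neutrophil (2.93) markers. It was also lowest in the mesothelial (2.41) and T and NK cell (0.616) sums. APAP_HDF library 1 was lowest instead in the Kupffer cell (256 against 285 in library 3) and bile duct (174 against 180) sums. It was likewise lowest in the hepatocyte (100232 against 123953) and B cell (1.856 against 1.865) sums. The Kupffer cell sum includes C6, at 51.3 CPM in library 1 and 132 in library 3. Cd163 (5.34), Vsig4 (4.31), Timd4 (1.21) and Slc40a1 (85.3) were lowest of the group in library 3. Of the bile duct markers, Krt19 (0.815 against 1.05), Epcam (1.16 against 1.29) and Spp1 (41.6 against 44.4) were lower in library 3 than in library 1. Krt7 was higher there (0.906 against 0.755). The order of these sums is thus not that of every marker. Hepatocyte markers, at 103236 to 129253 CPM with APAP alone, 109766 to 120074 after MSC and 100232 to 128745 after HDF, overlapped in all groups, with 0 of 11 called against APAP and 1 of 11 higher against APAP_HDF. Of all tested genes, 8.89% were called in APAP_MSC vs APAP_HDF, and the hepatocyte calls ran from 0 to 2 with 1 library left out. Of 9 Kupffer cell markers, 1 was lower against APAP (0 to 2 with 1 library left out) and 0 against APAP_HDF. Of 11 bile duct markers, 0 passed against APAP and 6 were higher against APAP_HDF, a count that ran from 1 to 6 with 1 library left out and was lowest without APAP_MSC library 2. Mesothelial, T and NK cell and B cell markers gave 0 calls in edgeR in either comparison. The part of these cell type markers in the levels of the 10 members was not tested.

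**Figure D5:**
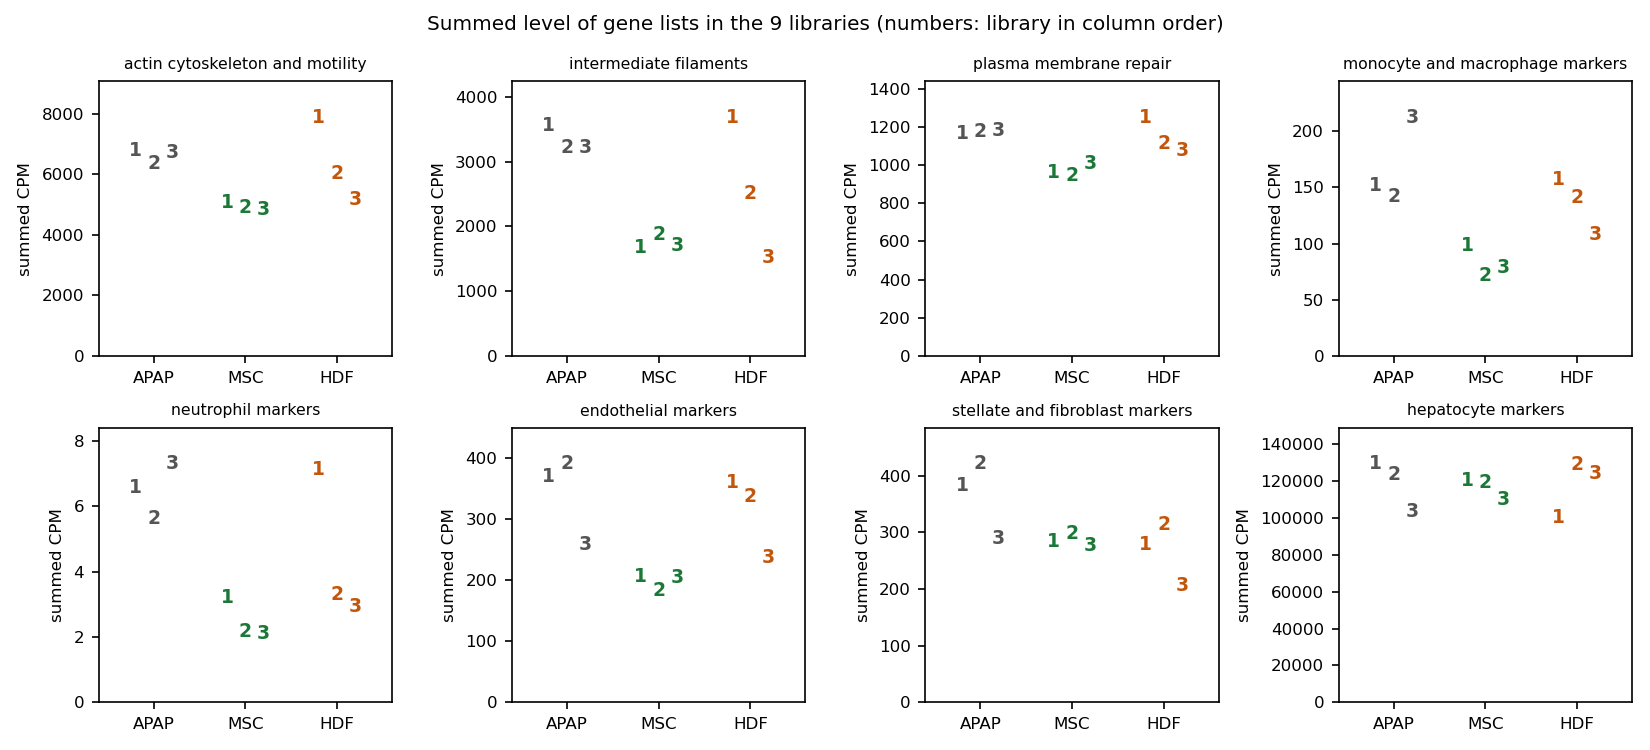
Summed CPM (vertical axes, from 0) of the genes in each of several lists, by group, with the 9 libraries as points numbered in column order. The macrophage sum is 71.8 to 98.3 CPM in APAP_MSC and 142 to 212 in APAP, while the hepatocyte sums overlap.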

How the data were processed

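Poly(A) RNA of mouse liver was sequenced in 9 libraries. Per the labels' protocols, RNA was extracted from pieces of whole liver with TRIZOL and libraries were made with a Tecan universal plus mRNA-seq kit. The submitters' processing notes name HISAT2, Subread and DESeq2, and the builds mm39 and GRCm39, without versions. The authors deposited whole-number read counts for 28956 gene symbols, per the file headers and values, and a table of normalized counts, a scaled signal that the authors deposited, which was not used here. The headers give each column's group but no replicate number.

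From the counts, CPM and fold changes came from edgeR 4.0.16 under R 4.3.3 (TMM factors, filterByExpr by group, robust quasi-likelihood fit over all 9 libraries, two-sided). Benjamini-Hochberg adjustment ran over 17582 tested genes, which held 99.966% of counts, and genes were called at an adjusted p under 0.05. Log2 CPM used a prior count of 2. DESeq2 1.42.0, limma-voom (limma 3.58.1), other size factors, no filter, only the 2 groups compared, and leaving out each library were alternatives, and edgeR's earlier quasi-likelihood method was added after seeing the data. The steps were tested on simulated data. Lengths come from GENCODE transcripts and promoters from RefSeq, both on GRCm38.

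The members and gene lists were chosen with earlier results of these data known, and the motifs after the promoter sequences had been seen. Of 241 list genes, 233 were found. From each list, the genes named are among the 3 with the smallest p in either comparison with APAP_MSC, at a mean of at least 1 CPM, and for Anxa2, Anxa5 and Vim the 4 genes of at least 5 CPM with the nearest pattern. A gene that this rule takes is not reported here.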

Additional observations from a re-analysis of the deposited data

Results flagged for a closer look

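Anxa3 was flagged because the effects of the MSC and HDF infusions on it, each against APAP, differed in the test of the difference itself, by log2 -1.33 ± 0.28 (SE; edgeR adjusted p = 0.0208). It was lower in all 3 APAP_MSC libraries than in all 3 APAP_HDF libraries, a separation shown by 16.4% of tested genes. The call held in 4 of 9 fits with a library left out. It was lost with no filter on low counts (edgeR adjusted p = 0.0527).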

How the results depend on the processing

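No paired analysis was possible because the count columns carry no replicate number. DESeq2 called 2050, 83 and 2537 genes in APAP_MSC vs APAP, APAP_HDF vs APAP and APAP_MSC vs APAP_HDF, where edgeR called 1121, 0 and 1563. In APAP_MSC vs APAP_HDF, DESeq2 and limma-voom each called 2 members and edgeR with no filter on low counts called 0, where the reported count was 1. With 1 library left out, genes called ran from 97 to 1753 in APAP_MSC vs APAP, from 0 to 32 in APAP_HDF vs APAP and from 361 to 1793 in APAP_MSC vs APAP_HDF, and members called from 0 to 7, 0 to 0 and 0 to 2. The lowest gene counts in both comparisons with APAP_MSC came without APAP_MSC library 2, in fits with fewer samples. Of 450 member values under an alternative, 398 kept direction and side of the threshold, 31 were no longer past it, 9 came past it and 12 reversed. The reversals were in differences that did not pass the test. With 1 library left out, S100a4 ran from -0.49 to 0.26 in APAP_MSC vs APAP, from -0.81 to 0.30 in APAP_HDF vs APAP and from -0.47 to 0.59 in APAP_MSC vs APAP_HDF, where limma-voom gave 0.24. Likewise in APAP_MSC vs APAP_HDF, Vim ran from -0.22 to 0.24, Anxa1 from -0.10 to 0.43 and Anxa5 from -0.48 to 0.023, and Anxa3 ran from -0.48 to 0.011 in APAP_HDF vs APAP. The causes were not tested. With 2 to 19 counts per library, depth limits S100a4.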
